A study of Triticum aestivum with 18 samples.

Results

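The net change over microspore culture was measured in the spring wheat genotype Nanda, as 3 libraries of embryo-like structures collected on Day 21 set against 3 libraries of freshly isolated microspores of Day 0, that is 6 of the 18 libraries of the series. The members of the comparison were taken from the labels alone. The other libraries are Nanda on Day 7, when the culture holds proembryos, and the genotype Sadash on all 3 days. Nanda responds strongly to culture and Sadash weakly. Spikes of both were kept in the cold before isolation, which the Day 0 microspores share with every later stage, and mid to late uninucleate microspores were purified on a maltose gradient. Each library holds total RNA from pooled material, labelled as a biological replicate, and the Day 21 pools contained well developed structures together with smaller, less developed ones.

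A microspore is the young haploid cell from which a pollen grain forms. In microspore embryogenesis, a stress and a rich medium turn this cell from pollen formation to cell division, and a multicellular structure like a zygotic embryo can grow from it without fertilization. Embryo development in cereals is known to bring in turn transcription factors of the B3, NF-Y and AP2 families, a cuticle-bearing epidermis, polarity and meristem factors, and finally the storage and desiccation proteins of the seed.

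Library totals over high-confidence genes were 15329240 to 16634112 counts on Day 21 and 11964810 to 19599779 counts on Day 0. Replicates correlated at 0.99 to 0.993 within Day 21 and at 0.992 to 0.994 within Day 0, while libraries of Day 21 and Day 0 correlated at 0.66 to 0.685 (Pearson correlations across genes, log2 of CPM plus 4). Of 107892 high-confidence genes, 62692 reached 1 CPM, a read count scaled to library size, in at least 1 of the 18 libraries and were tested. Levels are given as CPM after TMM normalization, where 1 count was worth 0.0589 to 0.0636 CPM on Day 21 and 0.0501 to 0.0813 CPM on Day 0. The terms "rose" and "fell" are kept for genes whose level on Day 21 differed by 2-fold or more from that on Day 0 (1 on the log2 scale) with an adjusted p under 0.01 in the quasi-likelihood test of edgeR. Where a stage held no count of a gene in any library, a fold change is given as a lower bound, computed as if each of its libraries had 3 counts.

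The labelled stages were checked against marker genes, as summed TPM, a scale of transcript abundance that allows for transcript length. The 7 GAMYB-type genes, MYB factors needed for pollen formation in rice, summed to 14.8 to 15.5 TPM on Day 21 and 194 to 205 TPM on Day 0, and all of them fell. The 6 embryo regulators of the NF-YB-6 and VP1 types summed to 131 to 139 TPM on Day 21 and 1.94 to 2.07 TPM on Day 0, and all of them rose. They were picked from lists of 8 NF-YB and 11 B3 genes. In these lists 3 NF-YB genes were not called, 3 B3 genes fell and 2 B3 genes were not called. Genes of anther wall and stamen types, which would mark tissue carried over from the spike, were at 158 to 193 TPM on Day 21 and at 0 to 0.12 TPM on Day 0, where 6 of the 7 had no counts. All 7 rose, as the embryo and seed genes did, and their part in those results was not tested. On Day 7 they were at 425 to 506 TPM, above Day 21, whereas the seed storage genes were at 23.3 to 137.1 TPM on Day 7 and at 1194 to 1771 TPM on Day 21. They belong to a list of 16 anther and stamen factors, of which 10 rose, 1 fell and 5 were not called. The egg cell types, 11 genes, were at 1.49 to 3.38 TPM on Day 21 and at 0 to 0.55 TPM on Day 0, and none was called.

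A large share of the transcriptome was at a different level at the end of culture. Of the 62692 genes tested, 31686 were called, or 50.5%, with 16256 higher on Day 21 (25.9%) and 15430 lower (24.6%). In these bulk libraries, fewer cells that express a gene and less of its RNA per cell cannot be told apart, and each value is relative to the other genes of its library. The changes were large as well as many. A log2 fold change of at least 4 was found for 6396 genes that rose, and one of at most -4 for 5535 genes that fell. On each side, 1598 and 1746 genes passed 8 and -8 on the log2 scale. No counts at all were found on Day 0 for 2348 of the genes that rose, and on Day 21 for 2886 of the genes that fell. Among these genes without counts in one stage, 326 averaged at least 10 CPM on Day 21 and 431 averaged at least 10 CPM on Day 0. Separation of the stages was common too: every Day 21 library lay above every Day 0 library for 25431 of the 62692 genes, and below for 25459. Stages without overlap, given for named genes below, were thus the usual case.

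**Figure D1:**
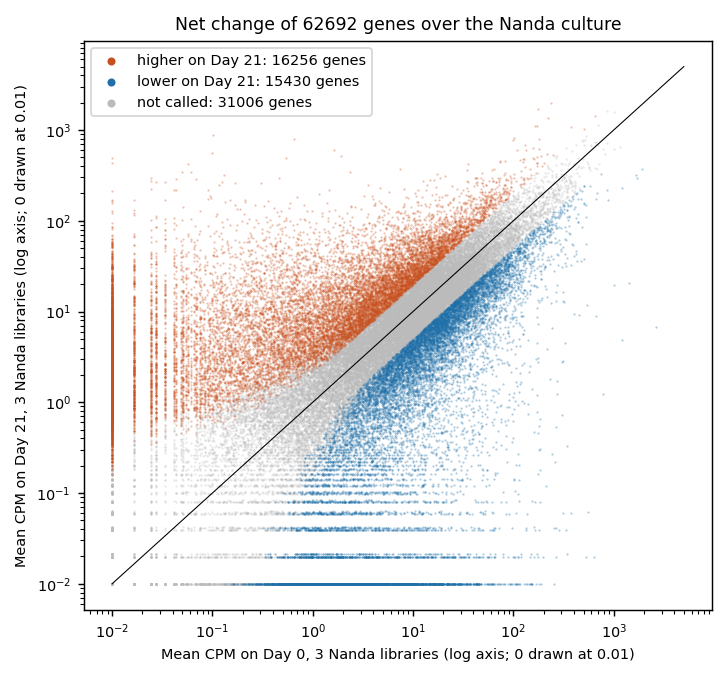
Mean CPM of each tested gene in the 3 Day 21 libraries (vertical log axis) against its mean in the 3 Day 0 libraries (horizontal log axis), with means of 0 drawn at 0.01 and the diagonal marking equal levels. The 16256 genes that rose lie above the diagonal and the 15430 that fell below it, and the dense lines at the lower left edges are genes without counts in one stage.

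Genes are grouped below by lists copied from the study's own tables of annotations, transcription factors and gene ontology (GO) terms. The list members were selected by the study on the same samples of Nanda. Members of the annotation and transcription factor lists had changed between Day 0 and Day 7, so genes that changed only later are missing from them. The GO lists come from enrichments for Day 0 to Day 7 or Day 7 to Day 21. The study ran these separately on up-regulated and down-regulated genes, so their members were picked with a direction. The annotated genes that are not transcription factors were all taken from genes with a strong rise by Day 7. Whole pathways or families are therefore not covered, and statements on a group below concern its listed genes only. The counts in the lists are therefore no independent evidence of a direction, and each is to be read beside the 25.9% and 24.6% of all genes. In the 35 lists without a fall in edgeR, 5 members in all were lower at an unadjusted p under 0.05, and in the 17 lists without a rise 2 members were higher, while DESeq2 gave no fall in the first set of lists and 2 rises in the second, both of RKD factors.

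Seed storage proteins were among the strongest rises of the culture. All 8 listed genes rose, with a median log2 fold change of 12.54, or 10.63 with the 4 genes that had no counts on Day 0 at their lower bound. Most of the genes are of the vicilin and cupincin types, globulins that fill protein storage vacuoles of the embryo and aleurone. The lowest of the 8 on Day 21, TraesCS1B02G158000, is described both as a chitinase and as a 2S globulin, was singled out after its values were seen, and had 2.97, 4.83 and 3.75 CPM on Day 21, against 0.0727, 0.0501 and 0 CPM on Day 0. TraesCS5B02G434100, of the cupincin type, had 699, 455 and 533 CPM on Day 21, against 0, 0.3004 and 0 CPM on Day 0. TraesCS5A02G432100, of the same type, had 675, 358 and 448 CPM on Day 21, against 0, 0 and 0 CPM on Day 0, which is at least 2421-fold higher. TraesCS5D02G440000 had 251, 189 and 237 CPM on Day 21, against 0.0727, 0 and 0 CPM on Day 0. For the cupincin-type genes the lowest Day 21 library lay far above the highest Day 0 library, while the Day 21 libraries of TraesCS5A02G432100 themselves spanned almost a factor of 2. The vicilin-like TraesCS4A02G135500 and the globulin-like TraesCS4A02G296000 had no counts on Day 0 and were at least 1037-fold and 629.9-fold higher on Day 21.

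Late embryogenesis abundant (LEA) proteins and dehydrins, which protect cells during drying, rose in all 11 listed cases (median log2 fold change 11.28, or 6.98 with 7 genes at their bound). TraesCS1D02G369200, of LEA group 3, had 411, 427 and 459.97 CPM on Day 21, against 0, 0 and 0 CPM on Day 0, at least 2119.9-fold higher. The LEA17-type genes TraesCS4A02G129100 and TraesCS4B02G175600 had 344 ± 11.4 and 266 ± 25.2 CPM on Day 21 (SD, n = 3 each), and their Day 0 libraries held at most 0.15 CPM. A dehydrin, TraesCS6A02G350500, had 56.4, 59.000 and 66.3 CPM on Day 21, against 0, 0 and 0 CPM on Day 0. None of these genes had a Day 21 library that overlapped with Day 0, which held for most tested genes. The COR14b-type gene TraesCS2A02G427300, a cold-responsive chloroplast protein in cereals, had 165, 146 and 163 CPM on Day 21, against 0, 0 and 0 CPM on Day 0.

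Proteins of oil bodies, the lipid stores of embryo cells, gave 5 rises among 7 genes and no fall (median log2 fold change 8.54, or 3.95 with 5 genes at their bound). TraesCS2D02G414800, a 16 kDa oleosin that coats the oil body surface, had 274, 387 and 363 CPM on Day 21, against 0, 0.1001 and 0.0813 CPM on Day 0. TraesCS2D02G364100, of the peroxygenase type that includes the calcium-binding caleosins, had 268, 281 and 334 CPM on Day 21, against 0.0727, 0 and 0 CPM on Day 0. A 1-Cys peroxiredoxin, an antioxidant enzyme of cereal embryos and aleurone, gave the most abundant transcript among the listed seed genes: TraesCS2D02G154300 had 743, 953 and 980.5 CPM on Day 21, against 0.0727, 0.1502 and 0.0813 CPM on Day 0 (log2 fold change 12.90, SE 1.62, edgeR adjusted p = 1.3e-06). By mean TPM it ranked 4 among all high-confidence genes on Day 21 and 59829 on Day 0. The second peroxiredoxin, TraesCS2B02G174400, had 219, 293 and 293 CPM on Day 21, against 0, 0 and 0.0813 CPM on Day 0. The Day 21 libraries of all 4 genes stood clear of Day 0.

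Among the master regulators of embryogenesis, the B3 factors of the LEC2, FUS3 and VP1 group split. Of 11 genes, 6 rose and 3 fell (median log2 fold change 1.02). VP1-type factors, which mediate abscisic acid responses in maturing cereal seeds, rose: TraesCS3B02G452200 had 78.4, 83.6 and 83.9 CPM on Day 21, against 1.38, 1.402 and 1.14 CPM on Day 0 (log2 fold change 5.95, SE 0.32, edgeR adjusted p = 2.1e-11). TraesCS3D02G412800 likewise had 72.1, 74.7 and 78.4 CPM on Day 21, against 0.654, 1.35 and 0.406 CPM on Day 0. LFL1-type factors, rice relatives of LEC2 and FUS3, were already present in the microspore: TraesCS3A02G249100 had 55.8, 49.2 and 53.98 CPM on Day 21, against 7.56, 6.46 and 6.83 CPM on Day 0, and TraesCS3D02G249100 had 43.9, 36.5 and 41.97 CPM on Day 21, against 13.1, 10.4 and 13.98 CPM on Day 0. Both rose without overlap between the stages, but by less than the VP1 type. The 3 that fell carry the description of one rice B3 protein, Os04g0676650. TraesCS2D02G560000 had 0, 0 and 0 CPM on Day 21, against 34.3, 35.3 and 33.9 CPM on Day 0, at least 189.8-fold lower, and TraesCS2B02G589800 and TraesCS2A02G554300 were at least 177-fold and 161-fold lower.

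NF-Y complexes bind CCAAT boxes, and the B subunits of the LEC1 group act in embryogenesis. Of 8 NF-YB genes, 5 rose and none fell (median log2 fold change 5.09, or 2.53 with 4 genes at their bound), and 3 rose when only the 6 libraries were fitted. TraesCS6A02G287300, of the NF-YB-6 (LEC1-like) type, had 5.52, 6.13 and 5.09 CPM on Day 21, against 0, 0 and 0 CPM on Day 0, at least 27.3-fold higher, and TraesCS6D02G268000 was at least 16.99-fold higher. TraesCS6B02G316600 had 3.62, 4.01 and 2.03 CPM on Day 21, against 0.145, 0.0501 and 0.244 CPM on Day 0. These levels were low, yet every Day 21 library exceeded every Day 0 library. Of 13 NF-YA genes, the DNA-binding subunits, 11 rose and 1 fell (median 3.31). TraesCS5A02G029900, of the NF-YA-2 type, had 25.9, 21.6 and 23.02 CPM on Day 21, against 2.04, 2.303 and 3.01 CPM on Day 0. The exception, TraesCS5D02G052200 of the NF-YA-1 type, had 4.33, 5.19 and 5.09 CPM on Day 21, against 15.3, 17.7 and 18.4 CPM on Day 0 (log2 fold change -1.81, edgeR adjusted p = 8.1e-08).

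AINTEGUMENTA-LIKE (AIL) and WRI factors, AP2-domain proteins that act in dividing embryonic tissue and in seed oil formation, rose in 24 of 30 cases and fell in 2 (median log2 fold change 6.78, or 5.44 with 8 genes at their bound). TraesCS2A02G505600 had 136, 119 and 119.5 CPM on Day 21, against 0.145, 0.3504 and 0.813 CPM on Day 0. TraesCS4B02G292900 had 65.7, 73.6 and 65.2 CPM on Day 21, against 0, 0 and 0 CPM on Day 0, at least 334-fold higher. TraesCS7D02G483200, of the AIL5 type, had 67.8, 58.8 and 53.98 CPM on Day 21, against 0.145, 0 and 0 CPM on Day 0. All 3 were close to absent from microspores and at 50 CPM or more in each Day 21 library. The 2 that fell were TraesCS1A02G242800, with 2.67, 3.01 and 4.197 CPM on Day 21, against 10.9, 9.31 and 12.3 CPM on Day 0, and TraesCS5B02G220400, with 0.88997, 0.707 and 0.763 CPM on Day 21, against 1.599, 2.603 and 3.58 CPM on Day 0. The call of the second was lost when any of 3 libraries was left out, with adjusted p of 0.023 without Day 0 replicate 3, 0.015 without Day 21 replicate 2 and 0.013 without Day 21 replicate 3.

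WUSCHEL-related homeobox (WOX) factors, which set up stem cell niches and early embryo domains, rose in 11 of 15 cases with no fall (median log2 fold change 4.99, or 3.13 with 8 genes at their bound). TraesCS2B02G117900, of the WOX11 type that drives crown roots in rice, had 28.1, 30.6 and 30.2 CPM on Day 21, against 0, 0 and 0 CPM on Day 0, at least 145-fold higher. The WOX7-type genes TraesCS3A02G247200 and TraesCS3D02G244300 had 9.404 ± 1.54 and 10.4 ± 1.17 CPM on Day 21 (SD, n = 3 each) and no counts on Day 0. A WOX5-type gene, TraesCS5B02G091000, changed less, with 4.69, 5.78 and 4.58 CPM on Day 21, against 0.7995, 1.65 and 1.54 CPM on Day 0, and was not called without Day 0 replicate 1 (adjusted p = 0.017 from edgeR). Growth-regulating factors (GRF), which promote cell number in young organs, rose in 12 of 13 cases (median 6.84, or 5.76 with 3 genes at their bound). TraesCS4B02G060000, of the GRF6 type, had 25.99, 24.2 and 21.05 CPM on Day 21, against 0.145, 0.2503 and 0.0813 CPM on Day 0, and TraesCS6D02G315700, of the GRF1 type, was at least 76.2-fold higher. No Day 21 library of these WOX and GRF genes reached down to the Day 0 range.

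**Figure D2:**
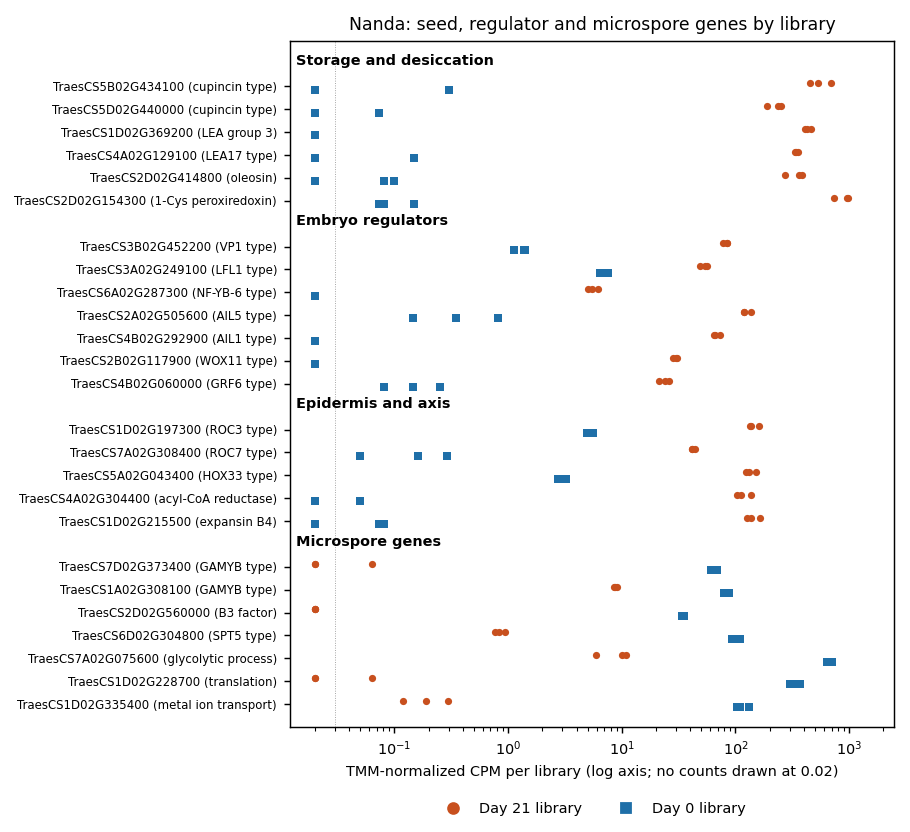
CPM of 25 named genes in each Nanda library (horizontal log axis, libraries without counts drawn at 0.02), with Day 21 libraries as circles and Day 0 libraries as squares, grouped by role. In every row the circles and squares stand apart, with Day 21 to the right for seed, regulator and epidermis genes and to the left for the genes of the microspore.

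Most listed factors of the epidermis and of organ polarity rose. HD-ZIP IV factors, which specify the outermost cell layer, rose in 17 of 18 cases (median log2 fold change 5.31, or 5.29 with 1 gene at its bound), and HD-ZIP III factors, which pattern the vascular tissue and the upper organ side, in 7 of 9 (median 3.30). TraesCS1D02G197300, of the rice ROC3 type, had 162, 136 and 135 CPM on Day 21, against 4.94, 5.56 and 5.12 CPM on Day 0 (log2 fold change 4.78, SE 0.20, edgeR adjusted p = 1.4e-12). TraesCS2A02G474000, of the ROC2 type, had 113, 102 and 90.5 CPM on Day 21, against 3.85, 4.91 and 6.26 CPM on Day 0. TraesCS5A02G043400, an HD-ZIP III factor of the rice HOX33 type, had 150.3, 132 and 125 CPM on Day 21, against 2.76, 3.25 and 3.01 CPM on Day 0. Day 21 and Day 0 did not overlap in any of the 3. The HOX9-type TraesCS1A02G157500 started from a higher level, with 94.9, 80.8 and 92.1 CPM on Day 21, against 9.89, 9.11 and 9.67 CPM on Day 0. All 11 genes listed under embryo patterning rose (median 8.87, or 6.14 with 7 at their bound), among them TraesCS7A02G308400 and TraesCS7D02G305200 of the ROC7 type with 42.5 ± 1.32 and 40.9 ± 1.76 CPM on Day 21, against 0.168 ± 0.1204 and 0.0834 ± 0.145 CPM on Day 0 (SD, n = 3 each).

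KNOX and BEL homeodomain factors, only some of which maintain the shoot meristem, moved less. The annotation does not separate the classes of KNOX factors, so that role cannot be assigned to the genes named here. Of 9 genes, 4 rose and none fell (median log2 fold change 1.63, or 0.97 with 1 gene at its bound). TraesCS7A02G511800, described as knotted-1-like 11 of rice, had 9.85, 11.02 and 9.41 CPM on Day 21, against 1.74, 1.85 and 2.68 CPM on Day 0. TraesCS6A02G145500, described as knotted-1-like 2, had 14.5, 12.9 and 13.7 CPM on Day 21, against 5.67, 7.21 and 8.13 CPM on Day 0 and was not called (log2 fold change 0.97, edgeR adjusted p = 0.0015), though its change passed 1 under DESeq2 at 1.03. The BEL1-like TraesCS4A02G289400 had 10.8, 9.25 and 10.7 CPM on Day 21, against 10.9, 10.4 and 14.96 CPM on Day 0, with overlapping stages and no call. HD-ZIP I and II factors rose in 22 of 25 cases (median 5.71, or 4.68 with 5 genes at their bound), for example TraesCS5D02G256200 of the HOX4 type with 56.01, 50.3 and 41.1 CPM on Day 21, against 0.436, 0.951 and 1.06 CPM on Day 0.

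The cuticle of lipids that seals a plant's surface was represented by 29 cutin and suberin genes, of which 28 rose and none fell (median log2 fold change 9.32, or 6.24 with 13 genes at their bound). TraesCS4A02G304400, a fatty acyl-CoA reductase that makes the alcohols of surface lipids, had 136, 113 and 103 CPM on Day 21, against 0, 0.0501 and 0 CPM on Day 0 (log2 fold change 11.92, SE 0.52, edgeR adjusted p = 9.8e-12). TraesCS7B02G408900, of the aldehyde decarbonylase type that makes wax alkanes, had 107, 85.8 and 79.2 CPM on Day 21, against 0.145, 0.3004 and 0 CPM on Day 0. All 15 of the 3-ketoacyl-CoA synthases, which lengthen fatty acids for waxes, rose (median 7.77, or 7.23 with 3 at their bound). TraesCS4D02G296400, of the Arabidopsis KCS10 type, had 88.8, 91.1 and 78.3 CPM on Day 21, against 0.436, 0.451 and 0.244 CPM on Day 0. Microspores thus held traces at most of these transcripts, and the Day 21 libraries of each named gene agreed within a factor of 1.5.

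Most listed cell wall genes showed the same direction. Expansins, which loosen walls during growth, rose in 13 of 14 cases (median log2 fold change 10.99, or 8.77 with 7 genes at their bound). TraesCS1D02G215500, of the expansin B4 type, had 137, 163 and 127 CPM on Day 21, against 0.0727, 0 and 0.0813 CPM on Day 0, and TraesCS6A02G307900, of the expansin A5 type, had 96.9, 89.2 and 68.03 CPM on Day 21, against 0, 0 and 0 CPM on Day 0. Xyloglucan genes rose in 10 of 10 cases, pectin genes in 14 of 15, extensins and arabinogalactan proteins in 9 of 10 and xylan genes in 4 of 7, a count that was 0 on the log2(TPM + 1) scale. The exception among the extensins, TraesCS5D02G376200, is described as a pollen-specific leucine-rich repeat protein, and had 0, 0 and 0 CPM on Day 21, against 0.363, 0.701 and 0.976 CPM on Day 0. Genes annotated to cellulose biosynthesis, whose synthases work at the plasma membrane, rose in 30 of 35 cases and none fell (median 4.33). TraesCS5A02G459400 had 277, 259 and 316 CPM on Day 21, against 13.9, 15.4 and 14.6 CPM on Day 0, the largest mean CPM among its called members, and its stages did not overlap.

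Most listed hormone and surface transport genes rose as well. Of 20 genes of auxin action, 18 rose (median log2 fold change 8.98, or 7.00 with 11 at their bound). TraesCS3B02G335300, of the GH3 type that conjugates auxin to amino acids, had 74.7, 57.1 and 57.99 CPM on Day 21, against 0, 0 and 0 CPM on Day 0. Of 12 genes of abscisic acid action, 10 rose (median 7.78, or 3.65 with 8 at their bound), with the PM19-type membrane protein TraesCS5B02G566400 at 35.95, 36.6 and 40.4 CPM on Day 21, against 0, 0 and 0 CPM on Day 0. Neither list had a member that fell. Genes annotated to water transport rose in 15 of 16 cases, and TraesCS6B02G450000 had 48.4, 70.9 and 64.3 CPM on Day 21, against 0, 0.1001 and 0.406 CPM on Day 0. Glutathione S-transferases, which attach glutathione to reactive compounds, rose in 17 of 18 cases (median 7.37, or 7.18 with 5 at their bound). TraesCS7D02G030700, of the GSTU6 type, had 227, 231 and 190.4 CPM on Day 21, against 1.67, 0.951 and 1.71 CPM on Day 0. All 21 genes annotated to phenylalanine breakdown, the entry to phenylpropanoids, rose (median 7.14, or 6.15 with 2 at their bound). TraesCS2D02G204700 had 164, 130.1 and 88.6 CPM on Day 21, against 1.09, 0.551 and 0.976 CPM on Day 0, and its Day 21 libraries, though spread, all lay far above Day 0.

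Listed genes of cell division rose by smaller factors from levels that microspores already had. They come from GO lists, whereas the seed, cuticle and hormone lists were taken from strong rises by Day 7. The sizes of change therefore cannot be compared between these groups. Of 20 genes of DNA replication initiation, 18 rose (median log2 fold change 1.69), of 21 of microtubule-based movement 20 rose (2.64), of 10 of mitotic cytokinesis 9 rose (3.13) and of 14 of chromosome condensation 10 rose (1.39), with no fall in any of these lists. TraesCS1B02G274600, annotated to replication initiation and DNA unwinding, had 412.5, 351 and 338 CPM on Day 21, against 74.5, 57.4 and 61.1 CPM on Day 0. TraesCS5D02G517200, annotated to mitotic cytokinesis, had 174, 174 and 159 CPM on Day 21, against 17.01, 19.3 and 18.3 CPM on Day 0 (log2 fold change 3.21, SE 0.16, edgeR adjusted p = 8.2e-12). Both were well above background on Day 0, and the libraries of each stage lay close together. Nucleosome assembly genes were mixed, with 22 of 40 higher and 4 lower (median 1.34). TraesCS3D02G340800 had 50.1, 47.5 and 35.3 CPM on Day 21, against 4.58, 4.15 and 3.66 CPM on Day 0, while TraesCS5A02G375400 had 0, 0.0589 and 0.0636 CPM on Day 21, against 11.7, 10.01 and 10.9 CPM on Day 0. Genes of the silencing pathway of RNA-directed DNA methylation divided evenly, with 16 of 35 higher and 12 lower (median 0.14). TraesCS7A02G514900 of this pathway had 52.4, 57.1 and 64.3 CPM on Day 21, against 3.93, 2.603 and 2.76 CPM on Day 0, and TraesCS3A02G221000 had 14.95, 14.4 and 13.04 CPM on Day 21, against 58.7, 68.8 and 67.4 CPM on Day 0.

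Transcription factors of the microspore formed the other side of the comparison. GAMYB-type factors, which act downstream of gibberellin in anthers and aleurone, fell in 7 of 7 cases (median log2 fold change -3.30). TraesCS7D02G373400 had 0, 0 and 0.0636 CPM on Day 21, against 61.3, 68.9 and 67.5 CPM on Day 0 (log2 fold change -11.16, SE 0.46, edgeR adjusted p = 8.3e-13). TraesCS7B02G278400 had 0.0593, 0.0589 and 0 CPM on Day 21, against 43.7, 50.4 and 51.3 CPM on Day 0. TraesCS1A02G308100, in contrast, kept a measurable level, with 8.66, 9.14 and 8.52 CPM on Day 21, against 87.6, 82.2 and 78.8 CPM on Day 0. The 2 genes on chromosomes 7D and 7B were therefore all but absent on Day 21, and the gene on 1A was reduced. TCX factors, CXC-domain proteins of the tesmin type, fell in 8 of 10 cases (median -1.56), or in 5 on the log2(TPM + 1) scale, with TraesCS1D02G393200 at 0.0593, 0.0589 and 0.0636 CPM on Day 21, against 10.9, 14.1 and 12.4 CPM on Day 0.

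MADS-box factors, known for flowering and floral organ identity, fell in 31 of 48 cases and rose in 8 (median log2 fold change -4.44, or -3.54 with genes without counts at their bound). TraesCS5A02G391700, of the VERNALIZATION 1 type that promotes flowering after cold in cereals, had 0.0593, 0.0589 and 0 CPM on Day 21, against 55.5, 63.8 and 62.4 CPM on Day 0 (log2 fold change -10.28, SE 0.30, edgeR adjusted p = 2.5e-14). TraesCS5B02G396600, of the same type, had 1.19, 1.77 and 1.84 CPM on Day 21, against 43.2, 50.8 and 52.2 CPM on Day 0. Against the majority, TraesCS3D02G284200, of the rice MADS32 type, had 59.6, 62.4 and 52.3 CPM on Day 21, against 0, 0.1502 and 0.163 CPM on Day 0. None of the 3 overlapped between stages. Heat shock factors were divided, with 12 of 29 higher and 10 lower. TraesCS2A02G204500, of the HSFA3 type, had 3.74, 2.65 and 2.61 CPM on Day 21, against 67.7, 71.7 and 64.2 CPM on Day 0, and TraesCS4D02G358900, of the C-2a type, had 46.3, 27.2 and 24.5 CPM on Day 21, against 0, 0 and 0 CPM on Day 0, at least 160.2-fold higher.

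The lists of other transcription factor families held more members that rose than fell. Of GRAS factors 39 of 47 rose and 3 fell (median log2 fold change 4.43), of DOF factors 14 of 16 rose (5.17, or 4.58 with genes without counts at their bound), of bHLH factors 63 rose and 16 fell (2.62), of bZIP factors 37 of 56 rose and 8 fell (2.35) and of NAC factors 12 of 20 rose and 1 fell (1.99). GATA factors, with 15 of 32 higher and 13 lower, and AS2/LOB factors, with 13 of 36 higher and 12 lower, went both ways. TraesCS2B02G289800, of the LOB41 type, had 124, 77.6 and 63.5 CPM on Day 21, against 6.25, 6.21 and 6.99 CPM on Day 0, and TraesCS4D02G078800, of the LOB36 type, had 6.94, 7.54 and 5.91 CPM on Day 21, against 42.01, 49.7 and 44.3 CPM on Day 0. Opposite calls thus occurred inside one family, each without overlap. The lone NAC gene that fell, TraesCS3A02G339600 of the NAC68 type, had 22.1, 14.2 and 12.3 CPM on Day 21, against 49.8, 69.5 and 67.96 CPM on Day 0. A bZIP gene of the HBP-1b type, TraesCS3A02G334100, had 32.9, 35.4 and 34.2 CPM on Day 21, against 0.218, 0.1001 and 0.325 CPM on Day 0, and TraesCS5B02G308800, of the bZIP29 type, had 0.415, 0.295 and 0.254 CPM on Day 21, against 23.8, 30.99 and 31.4 CPM on Day 0.

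The transcription machinery itself changed in part. Of 59 RNA polymerase subunit genes 18 rose and 17 fell (median log2 fold change -0.07), and of 99 genes of general RNA polymerase II transcription 28 rose and 42 fell (median -0.76). Genes described as RPB1, the largest subunit of RNA polymerase II, differed in direction. TraesCS7A02G301900 had 206, 219.8 and 250.1 CPM on Day 21, against 52.8, 41.2 and 50.1 CPM on Day 0, and TraesCS7D02G297100 had 162, 181 and 189 CPM on Day 21, against 44.05, 35.2 and 41.8 CPM on Day 0. TraesCS2A02G558100, on another chromosome, had 12.8, 13.3 and 12.8 CPM on Day 21, against 347, 300.00 and 293 CPM on Day 0 (log2 fold change -4.59, SE 0.19, edgeR adjusted p = 7.6e-13). Genes of one description therefore rose and fell, with no overlap in any case. SPT5, an elongation factor that travels with the polymerase, fell in both genes named here: TraesCS6D02G304800 had 0.771, 0.943 and 0.827 CPM on Day 21, against 92.5, 102 and 109 CPM on Day 0, and TraesCS6A02G325100 had 2.14, 1.59 and 1.02 CPM on Day 21, against 118, 114 and 114 CPM on Day 0. Mediator subunit genes TraesCS6D02G275000 and TraesCS6A02G294100 rose, with 158 ± 9.93 and 130.03 ± 7.37 CPM on Day 21, against 34.5 ± 6.005 and 27.01 ± 5.503 CPM on Day 0 (SD, n = 3 each).

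Most listed genes of central carbon metabolism were lower on Day 21. Genes annotated to glycolysis fell in 31 of 33 cases and none rose (median log2 fold change -3.42, or -3.24 with genes without counts at their bound). TraesCS6B02G243700 had 391, 284 and 280.1 CPM on Day 21, against 1645, 1683 and 1667 CPM on Day 0 (log2 fold change -2.39, SE 0.13, edgeR adjusted p = 3.3e-11). TraesCS7A02G075600 had 10.03, 10.96 and 5.91 CPM on Day 21, against 635, 713 and 649 CPM on Day 0. Summed over the list, the mean was 525 TPM on Day 21 and 3632 TPM on Day 0. Genes of the tricarboxylic acid cycle fell in 19 of 21 cases (median -3.30), with TraesCS2A02G187300 at 53.6, 57.5 and 49.9 CPM on Day 21, against 403, 389.6 and 383 CPM on Day 0. Genes of the mitochondrial electron transport chain fell in 19 of 21 cases (median -2.08), and TraesCS1D02G263400 had 64.7, 63.8 and 57.7 CPM on Day 21, against 179, 223 and 208 CPM on Day 0. Of these genes, only TraesCS7A02G075600 was left below 40 CPM in every Day 21 library.

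Listed genes of sugar pathways went the same way with exceptions. Genes of galactose metabolism fell in 15 of 17 cases, trehalose genes in 14 of 20 with 1 rise, and sucrose genes in 13 of 18 with 2 rises. TraesCS5B02G510900, of galactose metabolism, had 16.7, 19.4 and 19.6 CPM on Day 21, against 172, 175 and 172 CPM on Day 0. TraesCS1D02G213700, of trehalose metabolism, had 8.25, 6.72 and 6.87 CPM on Day 21, against 161, 182 and 188 CPM on Day 0, whereas TraesCS6A02G351300 rose, with 81.2, 40.5 and 37.8 CPM on Day 21, against 20.9, 19.4 and 16.02 CPM on Day 0, a call that rested on Day 21 replicate 1 (adjusted p = 0.014 from edgeR without it). TraesCS4A02G140000, of sucrose metabolism, also rose, with 73.6, 85.1 and 104 CPM on Day 21, against 21.2, 18.9 and 21.5 CPM on Day 0. Starch biosynthesis was divided, 11 of 29 higher and 8 lower (median log2 fold change -0.10). TraesCS1D02G427400 of this list had 111, 117 and 133 CPM on Day 21, against 11.6, 5.86 and 6.67 CPM on Day 0, and TraesCS7A02G549100 had 9.196, 9.25 and 8.39 CPM on Day 21, against 35.9, 17.97 and 20.6 CPM on Day 0. In both the stages stood apart, although in the last the Day 0 libraries spread over a factor of almost 2. Proline biosynthesis genes fell in 7 of 10 cases (median -2.33), with TraesCS1B02G290600 at 68.2, 66.96 and 74.6 CPM on Day 21, against 231, 237 and 235 CPM on Day 0.

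Most listed genes for building and decoding RNA and for protein turnover were lower too. Those of ribosome biogenesis fell in 19 of 21 cases (median log2 fold change -3.51), of tRNA charging in 18 of 21 (-3.96), of RNA modification in 13 of 21 (-2.07, or 7 of 21 on the log2(TPM + 1) scale) and of translational termination in 11 of 17 (-1.38), and none rose. TraesCS1A02G404700, of ribosome biogenesis, had 75.6, 71.7 and 81.7 CPM on Day 21, against 229.6, 230.2 and 243 CPM on Day 0. TraesCS5D02G333800, of tRNA charging, had 13.5, 23.9 and 30.5 CPM on Day 21, against 176, 195 and 199 CPM on Day 0. The first was stable within each stage, and the second more than doubled between Day 21 libraries without approaching Day 0. Genes of protein ubiquitination, which tags proteins for removal, fell in 29 of 42 cases (median -7.40, or -4.93 with genes without counts at their bound). Of these 42 genes, 33 had no counts on Day 21, 7 of which had none on Day 0 either. Among the others was TraesCS1D02G211400, which had 0, 0 and 0 CPM on Day 21, against 43.6, 46.5 and 42.8 CPM on Day 0, at least 244-fold lower.

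Metal ion transport was the list with the deepest median. Its members were picked with a direction, so neither its falls nor its rank among the lists is independent evidence. Of 41 genes, 39 fell (median log2 fold change -8.28, or -6.40 with 22 genes without counts on Day 21 at their bound), and their summed mean was 2.02 TPM on Day 21 and 447 TPM on Day 0. TraesCS1D02G335400, also annotated to calcium transport, had 0.297, 0.118 and 0.191 CPM on Day 21, against 103, 131 and 109 CPM on Day 0 (log2 fold change -9.09, SE 0.37, edgeR adjusted p = 9.0e-13). TraesCS7B02G227900 had 0.237, 0.413 and 0.191 CPM on Day 21, against 55.2, 46.8 and 62.4 CPM on Day 0. The wider calcium transport list fell in 25 of 35 cases with 1 rise, TraesCS3A02G202800, which had 32.8, 36.9 and 33.6 CPM on Day 21, against 17.3, 16.4 and 16.5 CPM on Day 0. This rise, of 1.04 on the log2 scale, was 0.98 with the stricter filter and 0.99 without Day 21 replicate 2, below the threshold. Genes of the heat response fell in 16 of 21 cases (median -4.83, or -3.34 with 8 genes at their bound), as TraesCS7D02G353800 with 3.74, 4.83 and 3.82 CPM on Day 21, against 93.3, 139 and 119.99 CPM on Day 0, and genes of meiosis I in 18 of 21 (median -2.16), as TraesCS5D02G294100 with 7.65, 6.25 and 6.93 CPM on Day 21, against 98.999, 90.6 and 109 CPM on Day 0. Most listed genes of 2 response terms rose, with 9 of 12 for red and far red light (median 2.18) and 11 of 13 for regulation of jasmonate signalling (median 1.88). Whether the responses themselves were stronger was not measured. Genes of plastid translation rose in 4 of 10 cases.

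**Figure D3:**
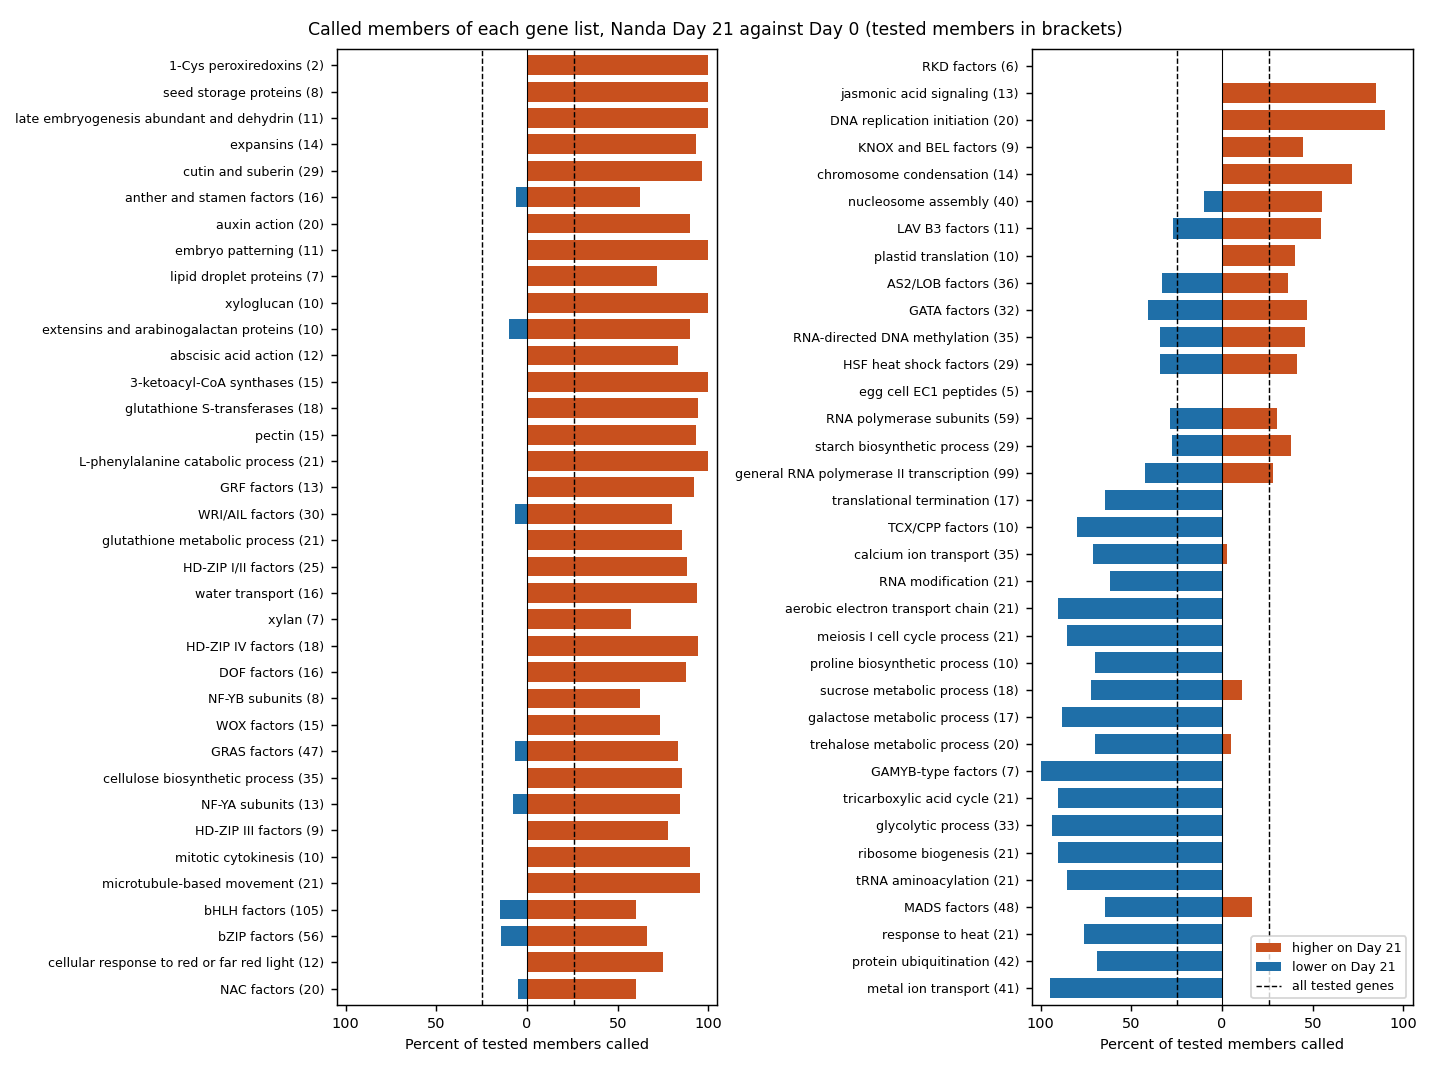
Percent of tested members called higher (bars to the right) and lower (bars to the left) on Day 21 in each of the 71 lists, ordered by their median log2 fold change, with tested members in brackets and dashed lines at the 25.9% and 24.6% of all genes. Seed, cuticle and wall lists stand at the top with nearly all members higher, and metal ion transport at the bottom with 39 of 41 lower. The lists at both ends hold members picked with a direction, so their order is no independent evidence.

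The largest changes of single genes named many of the same groups and some others. They are the called genes with at least 10 CPM on average in the higher stage and the greatest log2 fold change, and most descriptions at hand for genes that rose come from the table of strong rises by Day 7. On the rising side were TraesCS1B02G101100, described as a glucose and ribitol dehydrogenase of the type found in cereal embryos, with 104.9, 205 and 185 CPM on Day 21, against 0, 0 and 0 CPM on Day 0, the defensin-like TraesCS5D02G334900, with 149.7, 190.03 and 172 CPM on Day 21, against 0, 0 and 0 CPM on Day 0, and the heavy-metal-associated protein TraesCS4A02G219400, with 114, 121 and 131 CPM on Day 21, against 0, 0 and 0 CPM on Day 0. On the falling side, TraesCS1D02G228700, annotated to translation, had 0, 0 and 0.0636 CPM on Day 21, against 299, 355 and 366 CPM on Day 0. TraesCS3B02G311200, annotated to cellular localization, had 0, 0 and 0 CPM on Day 21, against 133, 91.96 and 90.97 CPM on Day 0, at least 579-fold lower. TraesCS2D02G562400, annotated to carbohydrate breakdown, had 0, 0.0589 and 0.0636 CPM on Day 21, against 333, 215 and 217 CPM on Day 0. TraesCS2D02G562600, annotated to isocitrate metabolism, was at least 299-fold lower. These genes were thus nearly confined to one stage in the 6 libraries.

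In TPM, a microtubule gene and an egg apparatus gene stood beside the peroxiredoxin among the most abundant described genes on Day 21. TraesCS1D02G353100, annotated to microtubule cytoskeleton organization, was at 1194 ± 15.8 TPM on Day 21 and 109 ± 20.4 TPM on Day 0 (SD, n = 3 each) and ranked 7 on Day 21 and 1219 on Day 0. TraesCS6B02G091800, described as an egg apparatus protein, was at 897 ± 175 TPM on Day 21 and 1.18 ± 2.05 TPM on Day 0. Among the most abundant genes of microspores were metabolic ones. TraesCS6D02G196300, annotated to nucleotide and pyruvate metabolism, was at 366 ± 36.1 TPM and rank 158 on Day 21, against 1608 ± 72.1 TPM and rank 2 on Day 0. The glycolytic TraesCS6B02G243700 was at 319 ± 57.7 TPM and rank 204 on Day 21, against 1424 ± 18.5 TPM and rank 3 on Day 0. Both fell and still ranked high at the end. More genes were detected on Day 21, by a number that depended on the cut: genes at 1 TPM or more numbered 48005, 48613 and 47859 on Day 21 and 45487, 45306 and 45381 on Day 0, a difference of 2768 (exact permutation test, two-sided, p = 0.1, the smallest that 3 against 3 libraries allow, adjusted p = 0.12 over 6 measures). The difference was 1822 at 0.5 TPM and 4112 at 5 TPM. The 100 most abundant genes held 8.07 ± 0.0986% of TPM on Day 21 and 8.53 ± 0.274% on Day 0 (SD, n = 3 each), and the 10 most abundant held 1.695 ± 0.0402% on Day 21 and 1.535 ± 0.0319% on Day 0, each with the same exact permutation p of 0.1.

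Values of Day 7 show by which route the net change was reached, and are given side by side because they share libraries with it. Seed proteins were late: TraesCS1D02G369200 averaged 0 ± 0 CPM on Day 0, 24.9 ± 16.02 CPM on Day 7 and 433 ± 25.1 CPM on Day 21 (SD, n = 3 each), and TraesCS2D02G154300 averaged 0.101 ± 0.0425, 16.8 ± 28.3 and 892 ± 129.98 CPM on the same days. Day 7 libraries spread widely for these genes. Other genes had passed their highest level. TraesCS4D02G296400, the ketoacyl-CoA synthase, averaged 0.377 ± 0.115 CPM on Day 0, 215 ± 41.03 CPM on Day 7 and 86.1 ± 6.84 CPM on Day 21. LFL1-type TraesCS3A02G249100 averaged 6.95 ± 0.561, 126 ± 9.78 and 53.01 ± 3.41 CPM, and NF-YB-6-type TraesCS6A02G287300 averaged 0 ± 0, 24.2 ± 2.42 and 5.58 ± 0.524 CPM. For these genes the comparison of Day 21 with Day 0 gives only what was left of the Day 7 level.

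Other genes were highest on Day 7 and had no called rise on Day 21. RKD factors, which act in egg cells and early embryos of Arabidopsis, gave no call among 6 genes in edgeR, with 2 genes higher at an unadjusted p under 0.05 and 2 called by DESeq2: TraesCS6A02G307500 averaged 0 ± 0 CPM on Day 0, 4.98 ± 1.62 CPM on Day 7 and 0.184 ± 0.108 CPM on Day 21. EC1 peptides, secreted by Arabidopsis egg cells at fertilization, gave no call among 5 genes, none at an unadjusted p under 0.05 and none by DESeq2, and TraesCS7B02G351300 averaged 0.0167 ± 0.0289 CPM, 9.11 ± 2.14 CPM and 0 CPM on the 3 days. The pollen-specific TraesCS5D02G376200 averaged 0.6799 ± 0.307 CPM on Day 0 and 83.8 ± 5.93 CPM on Day 7, and had no counts on Day 21, a net fall. Chitinase-like TraesCS3A02G040800 averaged 0.539 ± 0.149 CPM on Day 0, 217 ± 41.04 CPM on Day 7 and 3.22 ± 1.24 CPM on Day 21, and its net change was not called (log2 fold change 2.51, edgeR adjusted p = 0.02). Among genes that fell, GAMYB-type TraesCS7D02G373400 averaged 65.9 ± 4.07, 7.503 ± 0.845 and 0.0212 ± 0.0367 CPM on the 3 days, most of the way down by Day 7, whereas the glycolytic TraesCS6B02G243700 averaged 1665 ± 19.1, 1526 ± 85.99 and 318 ± 63.2 CPM.

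**Figure D4:**
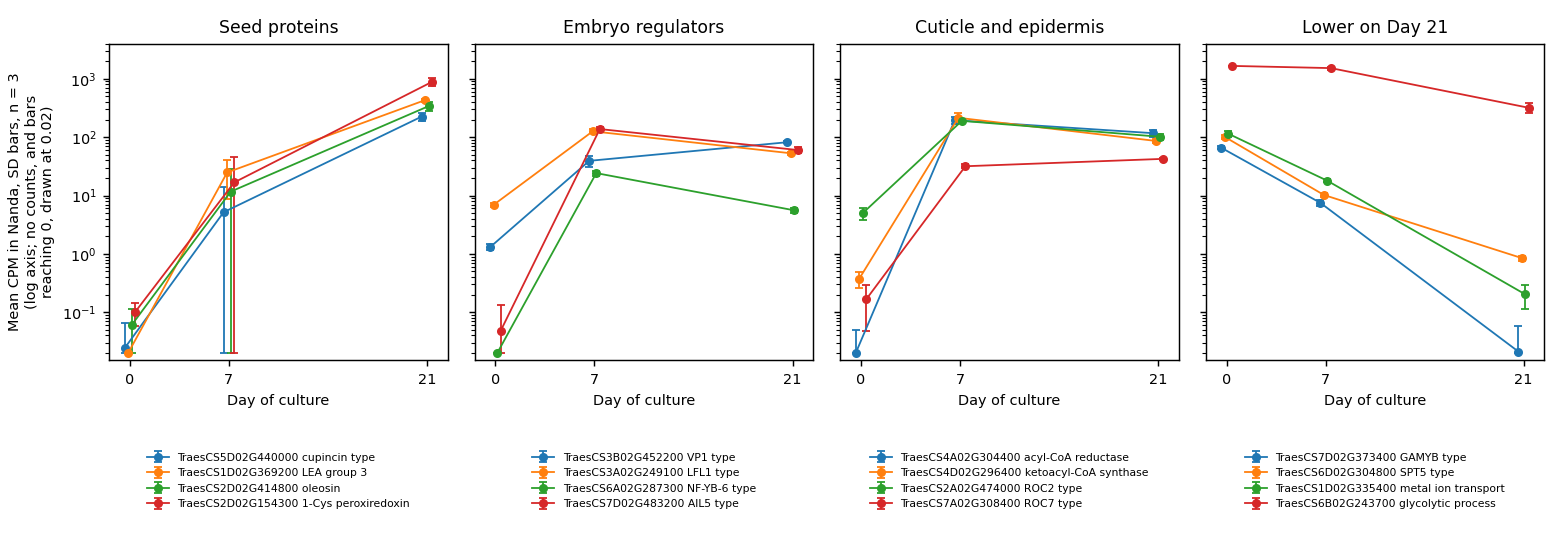
Mean CPM of 16 named genes in Nanda on Days 0, 7 and 21 (vertical log axis, bars the SD of 3 libraries, means without counts and bars reaching 0 drawn at 0.02), in 4 panels by role. Seed proteins were highest on Day 21, several regulators and cuticle genes on Day 7, and the genes that fell were lowest on Day 21.

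The net change in Sadash, fitted in the same model, had 28946 calls of 62692 (46.2%), 15019 higher and 13927 lower. The genotypes share no library here. Of the Nanda genes that rose, 11308 also rose in Sadash, which is 69.6% of the Nanda list and 75.3% of the Sadash list, and of those that fell 9815 also fell, or 63.6% and 70.5%. Calls in opposite directions were few, with 197 genes higher in Nanda and lower in Sadash and 86 the reverse. The difference between the 2 net changes was itself called for 9312 genes (14.9%), with 4982 more positive in Nanda (7.95%) and 4330 more negative in Nanda (6.91%). The share of these calls that was more positive in Nanda was 53.5%, against 43.2% with the stricter filter (1 CPM in 3 libraries or more), 69.5% in limma on log2(TPM + 0.1) and 70.005% on log2(TPM + 1), where the median difference of all genes stood at -0.18, 0.22 and 0.165 on the log2 scale, against -0.06 in edgeR. Of the 9312 genes, 1872 had been called in the same direction in both genotypes, 3520 in Nanda only and 2352 in Sadash only.

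No member of the seed storage, LEA, oil body, NF-YB or cutin lists had a called difference between genotypes in edgeR, with 1 LEA gene more positive in Nanda at an unadjusted p under 0.05 and 1 seed storage gene called by DESeq2, which does not show that these genes changed alike. List members were taken from genes that the study found changed in Nanda, without a like selection in Sadash. Counts of differences in the lists are therefore no independent evidence of a genotype difference. They are to be read beside the 7.95% of all genes more positive and the 6.91% more negative in Nanda. In starch biosynthesis, 11 of 29 genes were more positive in Nanda and 1 more negative. TraesCS1D02G427400 averaged 120.4 ± 10.96 CPM on Day 21 and 8.05 ± 3.13 CPM on Day 0 in Nanda, and 42.001 ± 9.96 CPM on Day 21 and 33.9 ± 8.25 CPM on Day 0 in Sadash, a difference of 3.59 (SE 0.38, edgeR adjusted p = 1.9e-06) on the log2 scale. The counts of genes more positive were 8 to 12 under the alternatives. Cellulose biosynthesis had 12 of 35 genes and RNA polymerase subunits 17 of 59 genes more positive in Nanda, and 0 and 7 more negative. TraesCS7A02G182200, of cellulose biosynthesis, averaged 181 ± 17.03 CPM on Day 21 and 8.46 ± 0.583 CPM on Day 0 in Nanda, and 58.1 ± 11.7 CPM on Day 21 and 15.5 ± 7.61 CPM on Day 0 in Sadash. On the other side, 19 of 40 nucleosome assembly genes, 9 of 21 electron transport genes and 8 of 33 glycolytic genes were more negative in Nanda, with 0, 0 and 2 more positive. For nucleosome assembly the alternatives gave 13 to 24 genes, none of them more positive. TraesCS1D02G263400, of electron transport, averaged 62.1 ± 3.79 CPM on Day 21 and 203 ± 22.7 CPM on Day 0 in Nanda, where it fell, and 257 ± 37.3 CPM on Day 21 and 142 ± 23.4 CPM on Day 0 in Sadash, a difference of -2.57 (SE 0.19, edgeR adjusted p = 7.9e-08).

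Single genes differed far more. VERNALIZATION 1-type TraesCS5A02G391700 averaged 0.0394 ± 0.0341 CPM on Day 21 and 60.6 ± 4.42 CPM on Day 0 in Nanda, against 22.3 ± 1.07 CPM on Day 21 and 24.5 ± 1.05 CPM on Day 0 in Sadash, a difference of -10.14 (SE 0.36, edgeR adjusted p = 1.4e-11). RPB1-type TraesCS2A02G558100 averaged 12.95 ± 0.27004 CPM on Day 21 and 313 ± 29.6 CPM on Day 0 in Nanda, against 0.304 ± 0.357 CPM on Day 21 and 283 ± 16.5 CPM on Day 0 in Sadash, so that the gene was left at a low level in Nanda and at almost none in Sadash. The calcium transport gene TraesCS5A02G276700 averaged 33.6 ± 7.29 CPM on Day 21 and 17.3 ± 2.403 CPM on Day 0 in Nanda, against 0.533 ± 0.214 CPM on Day 21 and 27.3 ± 4.86 CPM on Day 0 in Sadash, a difference of 6.73 (SE 0.43, edgeR adjusted p = 1.9e-08). TraesCS5B02G473500, annotated to interactions between species, averaged 29.3 ± 5.73 CPM on Day 21 and 0.0485 ± 0.0839 CPM on Day 0 in Nanda, and no counts on Day 21 and 19.4 ± 4.92 CPM on Day 0 in Sadash. TraesCS2B02G411600, annotated to cellular component assembly, had no counts on Day 21 and 0.0951 ± 0.0595 CPM on Day 0 in Nanda, against 145 ± 18.4 CPM on Day 21 and 8.64 ± 1.67 CPM on Day 0 in Sadash. Where a group has no counts the fitted difference depends on the prior count. The pair of genes that the study names for telling the genotypes apart were not called in Nanda: TraesCS1D02G454400 had 256, 252 and 241 CPM on Day 21, against 429, 412 and 390.5 CPM on Day 0 in Nanda (log2 fold change -0.72, edgeR adjusted p = 8.6e-04) and averaged 9.76 ± 0.236 CPM on Day 21 and 9.66 ± 1.19 CPM on Day 0 in Sadash, while TraesCS6A02G408200 had no counts in these 6 Nanda libraries and averaged 29.2 ± 3.205 CPM on Day 21 and 28.5 ± 5.72 CPM on Day 0 in Sadash.

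**Figure D5:**
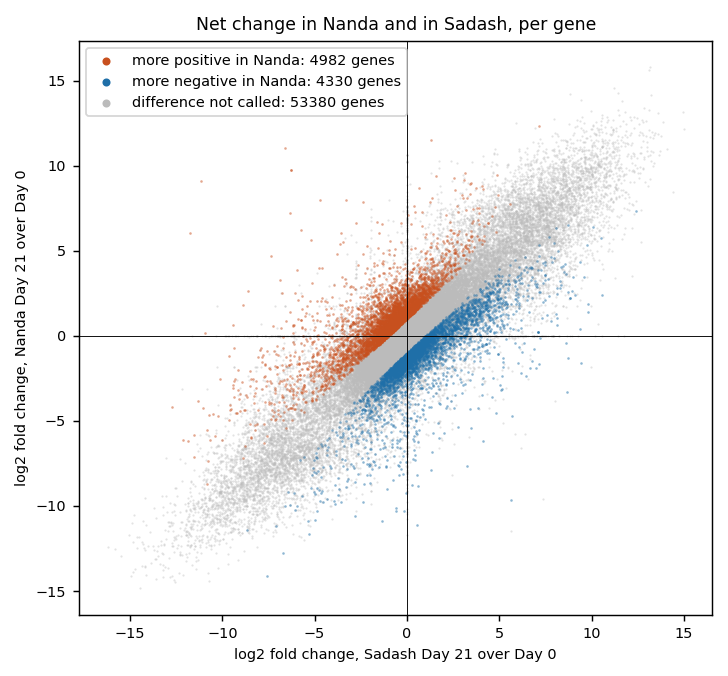
Log2 fold change of Day 21 over Day 0 in Nanda (vertical axis) against that in Sadash (horizontal axis), one point per tested gene, with the 4982 genes more positive and the 4330 genes more negative in Nanda marked. Most points lie near the diagonal, and the marked genes form bands on both sides of it.

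Wheat carries 3 related subgenomes, A, B and D, and most genes exist as 3 homoeologous copies. The study's list of triads is shortened in the copy used here, to 1999. Among the 1967 of these with every copy tested, all 3 copies rose in 396 and all 3 fell in 221, while 774 had no call. In 108 triads 2 copies rose and the other was not called, in 142 2 copies fell, and in 139 and 180 a single copy rose or fell. All copies were called one way in 51.7% of the 1193 triads with any call, and copies were called in opposite directions in 7. In one of these, the chitinase-like TraesCS3D02G039300 had 8.37, 12.6 and 5.91 CPM on Day 21, against 0.218, 0.1502 and 0 CPM on Day 0, and TraesCS3B02G042700 had 0.237, 0.0589 and 0.0636 CPM on Day 21, against 1.74, 2.15 and 2.19 CPM on Day 0. In another, TraesCS3A02G279800 had 18.3, 14.4 and 12.3 CPM on Day 21, against 5.67, 4.86 and 7.64 CPM on Day 0, and TraesCS3B02G313400 had 0.653, 0.5305 and 0.382 CPM on Day 21, against 11.8, 8.76 and 10.9 CPM on Day 0, but the call of the A copy was lost without Day 0 replicate 2 (edgeR adjusted p = 0.010). The counts are estimates that divide reads shared by near-identical copies, so that values of single copies are uncertain.

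The calls were spread over the genome. By the chromosome in the gene identifier, 22.9% (6A) to 28.1% (1D) of tested genes rose and 22.8% (6A) to 26.98% (2A) fell. The subgenomes were close to each other, with 25.7%, 25.99% and 26.3% of the A, B and D genes higher and 24.8%, 24.35% and 24.6% lower. Of the TPM, subgenome A held 32.43 ± 0.0449% on Day 21 and 32.60 ± 0.0279% on Day 0, subgenome B 32.22 ± 0.0119% and 31.97 ± 0.0462%, and subgenome D 34.31 ± 0.0266% and 34.31 ± 0.041% (SD, n = 3 each). For A and B the libraries of the 2 stages did not overlap, at differences of -0.17 and 0.25 percentage points (exact permutation test, p = 0.1 each, the smallest possible).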

How the data were processed

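The 6 libraries are Nanda on Day 21 and Day 0, 3 biological replicates each, fitted together with the 12 other libraries of the series. Reads were trimmed by the authors in Trimmomatic 0.39 and mapped to the IWGSC v1.1 wheat assembly in STAR 2.7.5a, and the expected counts per transcript from RSEM 1.3.3 were deposited. Reads that fit several homoeologous copies are divided among these by the estimate. A second table deposited by the authors holds the same transcripts as TPM, scaled by transcript length. Transcript values were summed per high-confidence gene, and the sums of expected counts were rounded. Low-confidence genes, 5.66% to 6.05% of the counts in these 6 libraries, were left out.

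Counts were normalized by TMM and tested with edgeR 4.0.16 (quasi-likelihood, 1 level per genotype and stage, 62692 genes with 1 CPM in at least 1 of 18 libraries, Benjamini-Hochberg adjustment). A call needed an adjusted p below 0.01 and a log2 fold change of at least 1 in size. The study's own contrasts do not include Day 21 against Day 0. SEs were derived from the F statistics. The alternatives comprised DESeq2 1.42.0, size factors by RLE, omission of the filter, a filter on 3 libraries, limma-trend 3.58.1 on log2(TPM + 1) and log2(TPM + 0.1), fits of only the libraries compared, a replicate block and each of the 6 libraries left out. On 18 simulated libraries of 57939 genes, of 50 genes changed by each factor in this comparison, the fit called 12 correctly for 2-fold changes, a size at the threshold itself, 44 for 4-fold, 48 for 8-fold and all 50 for 16-fold. The same step called 1 of 57739 unchanged genes. In the simulation only these drawn genes differed, in equal numbers up and down, and genes of low level were not drawn. In the data 50.5% of genes were called and many had no counts in one stage. The simulated rates therefore do not carry over to this comparison. R 4.3.3 and Python 3.11.15 (pandas 2.3.3, numpy 2.4.6, scipy 1.17.1, matplotlib 3.10.9) were used.

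Genes named are the most abundant members of each list (4 for regulator and seed lists, otherwise 2 called members per direction), list members called against their list, the 12 largest changes per direction among described genes (10 CPM or more in the higher stage, all 9 library pairs in 1 direction), the 6 most abundant described genes per stage, the 5 largest genotype differences per direction, copies in 3 triads with opposite calls, and 2 genes the study names. Not all are printed. Members and lists, 41 from annotations and 30 from GO terms, were chosen with earlier results of these data known, and 18 of the GO lists are shortened in the copy at hand. Lists and triads are described by counts, without a set test. Sequences and coordinates were not used here.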

Additional observations from a re-analysis of the deposited data

Results flagged for a closer look

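The net change differed between Nanda and Sadash for 9312 genes by a test of the difference itself, and 32 of the genes named above were among them. Values are the net log2 fold change of Nanda minus that of Sadash in edgeR, each with an adjusted p under 0.01. Among genes of metabolism, the difference was -2.11 for TraesCS1D02G213700 (trehalose), -2.57 for TraesCS1D02G263400 (electron transport), -1.17 for TraesCS2A02G187300 (tricarboxylic acid cycle), -1.77 for TraesCS6B02G243700 and -3.46 for TraesCS7A02G075600 (glycolysis), -1.15 for TraesCS6D02G196300 (pyruvate), 3.59 for TraesCS1D02G427400 (starch), and 1.13 for TraesCS5A02G459400 and 2.52 for TraesCS7A02G182200 (cellulose). Among regulators, it was -3.52 for TraesCS5B02G091000 (WOX5 type), -3.64 for TraesCS3D02G412800 (VP1 type), -2.20 for TraesCS5A02G029900 (NF-YA-2 type), -1.82 for TraesCS4D02G078800 (LOB36 type), -3.62 for TraesCS7B02G278400 and -4.08 for TraesCS7D02G373400 (GAMYB type), -10.14 for TraesCS5A02G391700 (VERNALIZATION 1 type) and -2.02 for TraesCS5B02G308800 (bZIP29 type). In the transcription machinery, it was 5.91 for TraesCS2A02G558100, 1.91 for TraesCS7A02G301900 and 1.77 for TraesCS7D02G297100 (RPB1 type), and 2.47 for TraesCS6A02G294100 and 1.96 for TraesCS6D02G275000 (Mediator subunit). For GAMYB-type TraesCS7B02G278400 and TraesCS7D02G373400, Day 21 means were 0.0394 and 0.0212 CPM in Nanda and 0.199 and 0.179 CPM in Sadash. Such levels cannot be told from absence, so the size of these differences is uncertain. VP1-type TraesCS3D02G412800 averaged 75.1 CPM in Nanda and 62.0 CPM in Sadash on Day 21. Its difference rests on low Day 0 means of 0.804 and 0.0465 CPM.

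Genes of division and the cytoskeleton gave 1.05 for TraesCS5D02G517200 (cytokinesis) and 1.84 for TraesCS1D02G353100 (microtubules). The heat response gene TraesCS7D02G353800 gave -2.88. The calcium transport gene TraesCS5A02G276700 gave 6.73. The copies in triads with opposite calls gave -4.02 for TraesCS3A02G279800, -7.69 for TraesCS3B02G313400 and -5.78 for TraesCS3B02G042700. The fitted differences of -5.04 for the bZIP factor TraesCS3A02G334100, 20.29 for TraesCS5B02G473500 and -7.57 for TraesCS2B02G411600 involve groups without counts and depend on the prior count.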

How the results depend on the processing

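The count of 31686 net calls was 26901 to 33393 under the alternatives with all libraries of the comparison, the lowest in limma on log2(TPM + 1) and the highest with only the 6 libraries, and 28794 to 29807 with 1 library left out. Only Nanda libraries were left out in turn, and the Sadash libraries of Day 21 were uneven, with 6675262 to 27463269 counts. The genotype difference, 9312 genes, was 7271 to 8618 with 1 Nanda library left out. The difference gave 8147 to 12387 genes under the other alternatives, the highest with only the 12 libraries of Day 21 and Day 0. Its genes more positive in Nanda, 4982 in edgeR, numbered 8507 in limma on log2(TPM + 1) and 7879 on log2(TPM + 0.1), and their share of the calls was 70.005% and 69.5%, against 43.2% with the filter of 1 CPM in at least 3 libraries. The same limma fits moved the median net change of all genes by 0.12 and 0.19 on the log2 scale, and 58.6% and 58.03% of the net calls were then higher, against 51.3%. The cause of these shifts was not tested. The excess of detected genes on Day 21 was 1822 at 0.5 TPM and 4112 at 5 TPM. No result changed its sign and kept a call. Of the 129 genes named, 119 kept their side of the threshold under every alternative, and of 142 list counts 130 stayed within 1.5 times. Whether same-numbered libraries of Day 21 and Day 0 share a culture is not stated, and they were treated as unpaired. Their deviations from the stage means correlated at -0.045, 0.093 and 0.016, against -0.123 to 0.095 for differently numbered libraries. A replicate block gave 30029 net calls and 8147 for the genotype difference. With 3 libraries per stage and medians of 16401513 counts on Day 21 and 13462474 on Day 0, genes below about 0.2 CPM cannot be told from absent ones.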
